A study of Mus musculus with 2 samples.

Results

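Transcripts of 10 granule-associated proteins were followed in blood neutrophils of aged and young mice after experimental stroke: Prtn3, Camp, Ltf, Ngp, Lcn2, Chil3, Mmp8, Mmp9, Serpinb1a and Slpi. They were picked by name, with earlier results of these data known, for the role of their proteins in or around neutrophil granules. They are 10 of the 11691 genes in the deposited table. The aged group was C57BL/6 mice of 18 to 24 months and the young group C57BL/6 mice of 2 to 4 months. Both had blood taken 24 h after the proximal middle cerebral artery was closed for a time and reopened (transient MCAo), so no unoperated mice stand beside them. CD11b+ myeloid cells, the Ly6G- ones and the Ly6G+ ones, had been sorted and were sequenced with a droplet kit that reads the 3′ end of each transcript and counts molecules (UMIs, unique molecular identifiers). Each age had 1 library. How many mice went into each, and how much of each sort, is not given in the sources used here.

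Neutrophils carry their weapons in granules that are filled one kind after another while the cell matures in the bone marrow. Azurophil granules, with serine proteases, are filled first in promyelocytes, specific granules, with lactoferrin and cathelicidin, next in myelocytes and metamyelocytes, and gelatinase granules last in band cells. The transcripts of a granule class are abundant mainly while that class is being filled, so a neutrophil in blood usually holds little of the early ones.

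The aged library held 3944 cells with a median of 2219 UMIs, and the young library 1849 cells with a median of 2022 UMIs, and 12 cell barcodes occur in both. After removal of probable doublets, the authors' label Neutrophil covered 2628 aged cells with 5481028 UMIs and a median of 1900, and 1133 young cells with 2026635 UMIs and a median of 1629. All 7 neutrophil markers that were used as a check on the label (S100a8, S100a9, Csf3r, Cxcr2, Ly6g, Retnlg and Il1r2) were present in it, and together they took 420283 CPM (UMIs of a gene per 1000000 UMIs of the labelled cells) in aged and 332298 CPM in young neutrophils. Monocyte markers took 515 CPM in aged and 551 CPM in young neutrophils, and erythroid markers took 212 CPM in aged and 778 CPM in young neutrophils. Their part in the results below was not tested. Because each age is a single library, the differences below were measured without replicates and were not tested, and they describe the pair of libraries rather than age. The 95% intervals hold counting error alone. UMIs of a gene that few cells hold are not independent of each other, so such intervals are too narrow for Camp and Ltf.

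Of the 10 transcripts, 4 were higher by 1.5-fold or more in the aged than in the young neutrophils, against 3.81% of all 4746 genes with at least 50 UMIs. These were Camp, Ltf, Ngp and Serpinb1a. Only Slpi of the 10 was at least 1.5-fold lower, against 20.3% of all those genes. The other 5 had ratios of aged over young between 1.12 and 1.34. The median log2 ratio of the 10 was 0.38, and that of all 4746 genes −0.24. Every one of the 10 had at least 50 UMIs over both libraries, so none was lost to that minimum. Because the 10 were chosen with earlier results known, their counts beside those of all genes are a description and no test. The total-count scale bears on the number of calls: with TMM scaling, which balances the libraries on the bulk of genes, the all-gene median was 0.07 and the 10 split into 6 higher and 0 lower by 1.5-fold, beside 10.4% of all genes higher and 6.97% lower. No transcript of the 10 changed its direction under that scaling.

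**Figure D1:**
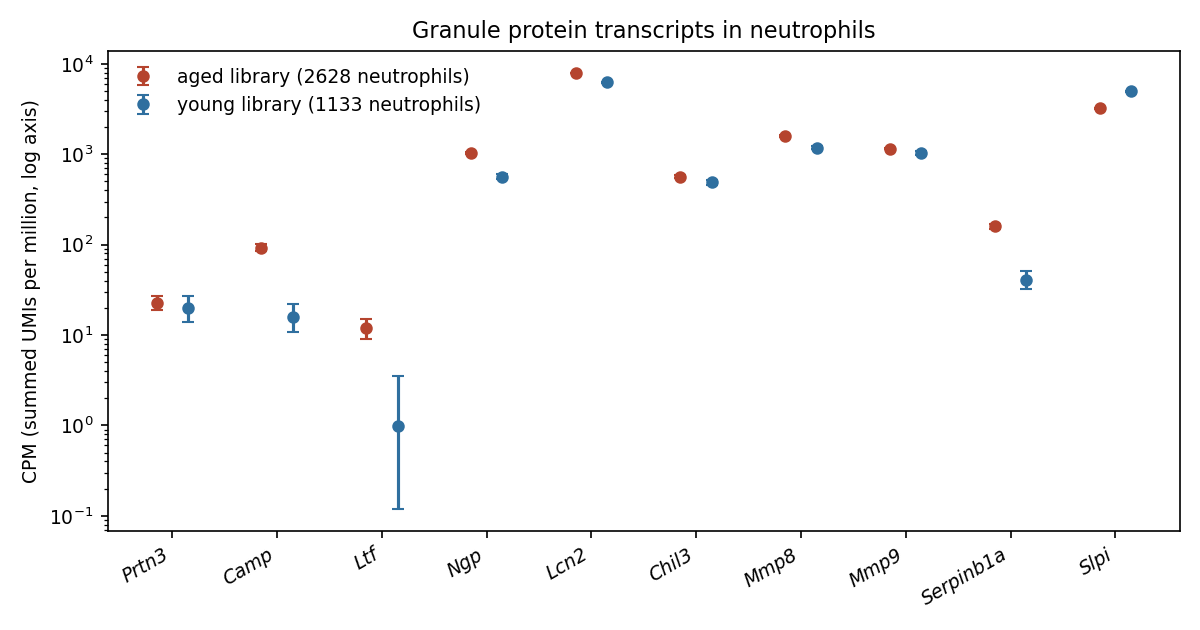
Level of each granule transcript in neutrophils of the aged library (red, left of each pair) and the young library (blue), in CPM on a log axis. Points are sums over all neutrophils of 1 library, bars the exact 95% Poisson interval. Camp, Ltf and Serpinb1a stand farthest apart, and Slpi is the only one with the blue point on top.

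Camp, Ltf and Ngp, transcripts of specific granules, were all higher in the aged neutrophils, Ngp by less than Serpinb1a below. Camp encodes cathelicidin, the precursor of an antimicrobial peptide that is stored in specific granules. It had 509 UMIs in aged and 32 UMIs in young neutrophils, or 92.9 CPM (85.0 to 101) in aged and 15.8 CPM (10.8 to 22.3) in young cells. The ratio was 5.88 (4.11 to 8.69). Ltf encodes lactoferrin, the iron-binding protein that marks specific granules. It had 65 UMIs in aged and 2 UMIs in young neutrophils, or 11.9 CPM and 0.987 CPM, a ratio of 12.0 with the wide interval of 3.20 to 101. Ngp encodes neutrophilic granule protein, a cystatin-like protein of the same granules in the mouse. It had 5622 UMIs in aged and 1150 UMIs in young neutrophils, or 1026 CPM and 567 CPM, a ratio of 1.81 (1.70 to 1.93).

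A small number of cells carried most of the first pair. Camp was found in 155 of 2628 aged neutrophils (5.90%, 5.03% to 6.87%) and in 27 of 1133 young neutrophils (2.38%, 1.58% to 3.45%). The 3 aged neutrophils with most Camp had 96, 56 and 31 UMIs, and no young neutrophil had more than 2. At least 5 Camp UMIs were held by 17 aged neutrophils (0.647%, 0.377% to 1.03%) and by 0 of 1133 young ones, which allows a share of up to 0.265%. The 5 aged cells with most Camp held 43.2% of the aged Camp UMIs. With the 5 highest cells of each library left out, 289 UMIs remained in aged and 22 in young neutrophils and the log2 ratio was 2.28, against 2.56 with them.

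Ltf was rarer and even more uneven. It was found in 22 aged neutrophils (0.837%, 0.525% to 1.26%) and in 2 young ones (0.177%, 0.0214% to 0.636%). The 5 highest aged cells held 70.8% of its aged UMIs. With the highest cell of each library left out, Ltf had 40 UMIs in aged and 1 UMI in young neutrophils, a log2 ratio of 3.89 that rests on that single young UMI.

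Ngp was spread over far more cells. It was found in 1251 aged neutrophils (47.6%, 45.7% to 49.5%) and in 367 young ones (32.4%, 29.7% to 35.2%). At least 5 UMIs were held by 277 aged neutrophils (10.5%, 9.39% to 11.8%) and 72 young ones (6.35%, 5.01% to 7.94%), and at least 20 UMIs by 41 aged and 2 young neutrophils. The 5 highest aged cells held 10.2% of its aged UMIs, and without the 5 highest cells of each library its log2 ratio was 0.83, against 0.85 with them. In neutrophils with no UMI of Camp or Ltf the log2 ratio of Ngp was 0.58, so it was higher in aged cells that lack both, by less than in all neutrophils.

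The same aged neutrophil was the highest in its library for Camp (96 UMIs), Ltf (25 UMIs), Ngp (295 UMIs) and Lcn2 (116 UMIs). It had 4847 UMIs in all, of which 12.0% came from the 10 transcripts, against a median of 1.45% per aged neutrophil and 1.37% per young neutrophil. It held 1031 UMIs of S100a8, the calprotectin subunit gene of neutrophils, and 0 of Mki67, a gene of dividing cells, and of Elane and Mpo, genes of azurophil granule enzymes. The second aged cell for Camp, with 56 UMIs, was also the second for Ltf (10 UMIs) and Ngp (86 UMIs) and held 0 UMIs of Mki67, Elane and Mpo too. In the young library the cell with most Ngp had 29 UMIs of it, 1 UMI of Camp and 0 of Ltf.

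**Figure D2:**
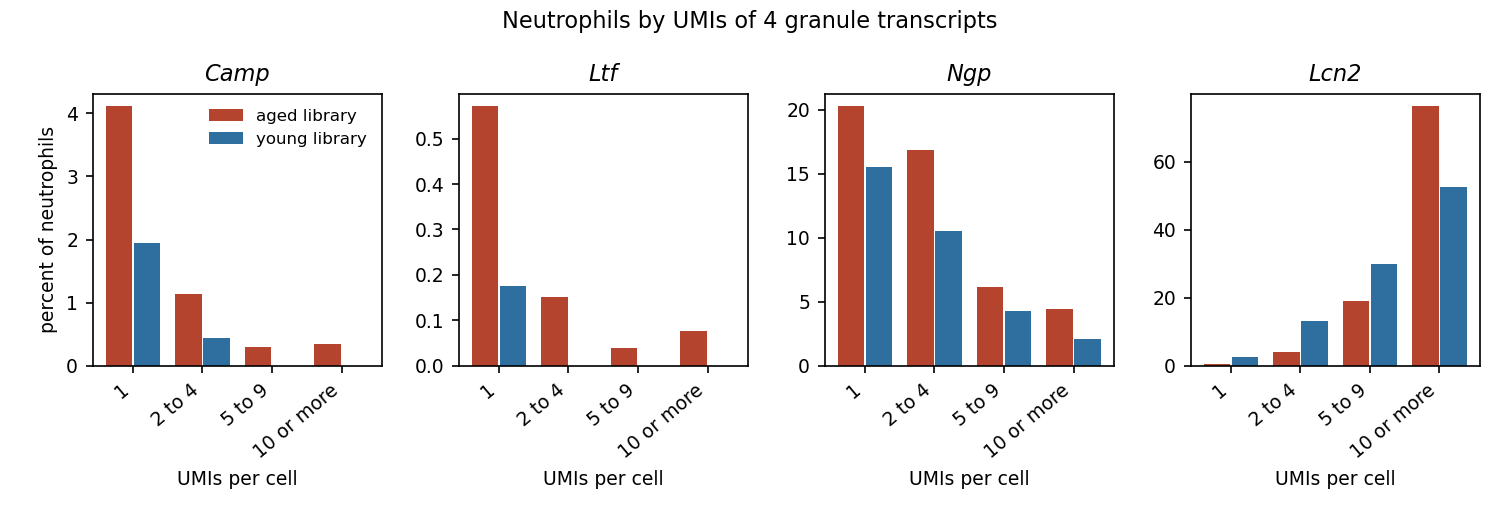
Percent of neutrophils by the number of UMIs of Camp, Ltf, Ngp and Lcn2 in the cell, in the aged library (red, left) and the young library (blue), with a scale of its own in each panel and cells with 0 UMIs not drawn. Camp and Ltf have aged cells in the classes of 5 to 9 and 10 or more UMIs and no young cell there, while for Lcn2 most neutrophils of both libraries hold 10 or more.

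Depth differed between the libraries, so each cell was also thinned at random to 500 UMIs, a number every cell reached. The Camp share was then 1.86% (1.38% to 2.46%) of aged and 0.971% (0.486% to 1.73%) of young neutrophils, and those intervals overlap. The Camp ratio in thinned cells was 2.74 and that of Ltf 3.45, the lowest for either under any setting tried, from few UMIs. For Ngp the thinned shares were 22.8% (21.2% to 24.5%) of aged and 16.3% (14.2% to 18.6%) of young neutrophils. Free RNA in the droplets was gauged from cells labelled NK, which should make none of these transcripts, with median depths of 2314 UMIs in the aged and 2000.5 in the young library. At full depth Ngp was found in 6.90% (1.91% to 16.7%) of 58 aged and 1.43% (0.0362% to 7.70%) of 70 young NK cells. Both intervals lie below its full-depth neutrophil shares of 47.6% in the aged and 32.4% in the young library. Camp and Ltf were found in 0 of the 58 aged and 0 of the 70 young NK cells, which allows shares of up to 5.17% and 4.29%. The full-depth Camp share of aged neutrophils, 5.90%, had an interval of 5.03% to 6.87%, which includes that 5.17%. The NK cells are thus too few to place the neutrophil shares of Camp and Ltf above free RNA. The deeper monocytes had lower shares than those limits, with Camp in 4 of 932 aged (0.429%) and 0 of 540 young cells. Ltf was found in 2 aged (0.215%) and 2 young (0.370%) monocytes. In the young library the Ltf share of neutrophils thus did not exceed that of monocytes, whose median depth was 6606.5 UMIs against 1629. In CPM, Ltf was at 0.987 in young neutrophils and 0.552 in young monocytes, on 2 UMIs in each.

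Camp, Ngp and Ltf were found in the same neutrophils more often than their separate shares would give. Of the 155 aged neutrophils with Camp, 119 had Ngp (76.8%, 69.3% to 83.2%), against 45.8% (43.8% to 47.8%) of the 2473 without Camp. The Camp-positive cells were deeper, with a median of 2342 UMIs against 1883 UMIs. At 500 UMIs per cell the gap was wider, with Ngp in 33 of 49 Camp-positive cells (67.3%, 52.5% to 80.1%) and in 22.0% (20.4% to 23.6%) of the rest. Ltf was found in 16 of the 155 Camp-positive aged cells (10.3%, 6.02% to 16.2%) and in 6 of the 2473 others (0.243%, 0.0891% to 0.527%). That is 12.3 times the number that the product of the shares gives. All 3 transcripts together were found in 15 aged neutrophils and in 0 young ones.

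In the young library 22 of 27 Camp-positive neutrophils had Ngp (81.5%, 61.9% to 93.7%), against 31.2% (28.5% to 34.0%) of the 1106 without Camp. These cells too were deeper, with a median of 2165 UMIs against 1620.5 UMIs. At 500 UMIs per cell Ngp was found in 5 of 11 Camp-positive (45.5%, 16.7% to 76.6%) and 16.0% (13.9% to 18.3%) of the other young cells, and those intervals overlap. Both young neutrophils with Ltf lacked Camp. Serpinb1a was found in 36.1% (28.6% to 44.2%) of Camp-positive and 19.2% (17.7% to 20.8%) of Camp-negative aged neutrophils, and in 11.1% (2.35% to 29.2%) and 5.70% (4.40% to 7.23%) of the young ones. At 500 UMIs per cell it was found in 14.3% (5.94% to 27.2%) of Camp-positive and 6.55% (5.63% to 7.58%) of Camp-negative aged neutrophils, with overlapping intervals. For Lcn2 and Slpi, which nearly every neutrophil held, detection could hardly differ, and in the aged library Slpi was found in all 155 Camp-positive cells and in 95.8% of Camp-negative cells. Cells of 1 library are not replicates, so these shares describe each library.

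**Figure D3:**
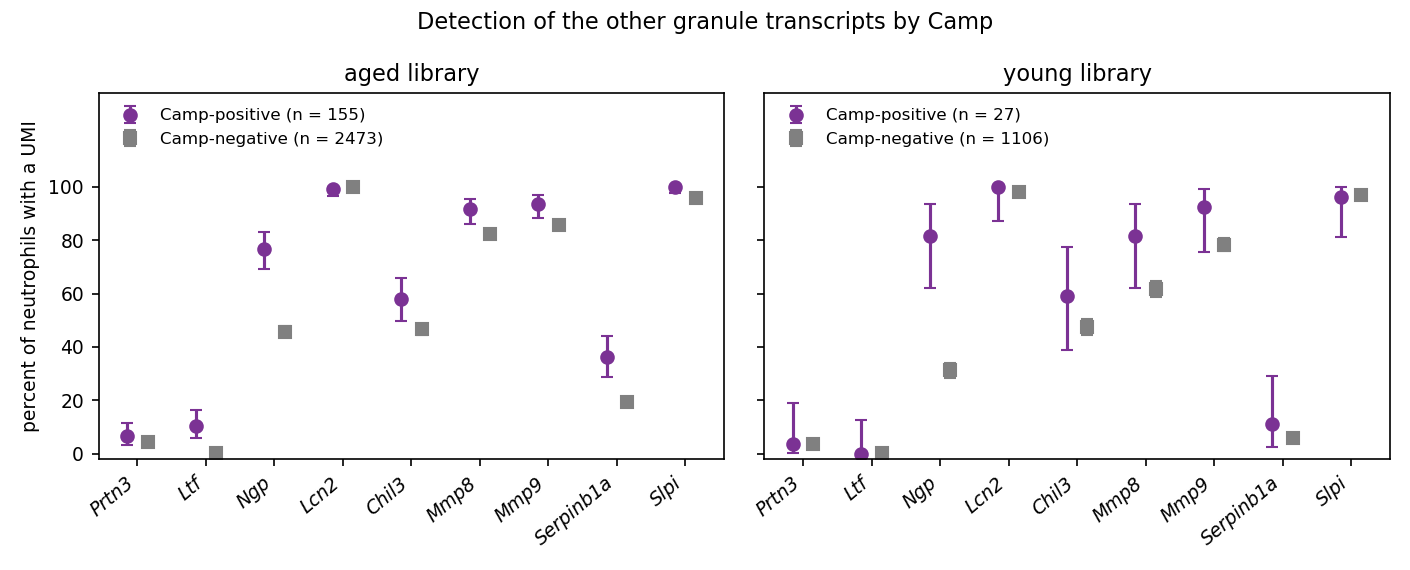
Percent of neutrophils with a UMI of each of the other 9 granule transcripts, in Camp-positive cells (purple circles) and Camp-negative cells (grey squares) of the aged library (left) and the young library (right), with exact 95% binomial intervals. The Camp-positive cells were deeper in both libraries. At this full depth only the intervals of Prtn3 and Lcn2 overlap in the aged panel, and in the young panel all but those of Ngp overlap.

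Other genes were ranked for likeness to Camp by CPM in Camp-positive over Camp-negative aged neutrophils. Of 994 genes that had 30 UMIs or more in the Camp-positive cells, 11 (1.11%) reached a 2-fold higher level there. That minimum lets a rare gene in only if it is high in those cells, so the count and the order carry no weight of their own. Of 1010 genes chosen instead by at least 400 UMIs over all aged neutrophils, a choice made after seeing the data, 2 (0.198%) reached 2-fold, Ngp and Serpinb1a. In the ranking by the first minimum, Ltf came first, at 142 CPM in Camp-positive and 1.18 CPM in Camp-negative cells, and Ngp second, at 4460 CPM and 745 CPM, a ratio of 5.99 (5.66 to 6.33). That interval is too narrow, since 1 Camp-positive cell held 295 of the 1847 Ngp UMIs of those cells. The young ratio for Ngp was 5.20 (4.38 to 6.15). Itgb2l, an integrin beta subunit gene of immature mouse neutrophils, followed, with a ratio of 4.03 (2.91 to 5.51) in aged and 5.96 (2.24 to 13.5) in young cells. Next came Cybb, the catalytic subunit of the NADPH oxidase, at 2.95 (1.97 to 4.32), Slc27a4, a fatty acid transport gene, at 2.81, Anxa3, the annexin A3 gene, at 2.43, and Ndufv3, a subunit of respiratory complex I, at 2.32. Stfa2, a stefin gene with near-identical copies that can share its reads, was at 2.12, Serpinb1a at 2.09 (1.71 to 2.52) and Rab3d, a small GTPase of secretory vesicles, at 2.02. In young cells the intervals of Cybb, Slc27a4, Anxa3, Ndufv3, Serpinb1a and Rab3d included 1. Without the 5 aged cells highest in Camp, 7 genes reached 2-fold, of which 6 were among the 11, and the ratio of Ngp was 4.65, that of Ltf 38.5 and that of Serpinb1a 1.90. Ltf then fell under the minimum of UMIs.

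Camp, Ngp and Ltf lie near each other on mouse chromosome 9. On GRCm38 Camp spans chr9:109847379-109849617 on the minus strand, Ngp chr9:110419747-110423012 on the plus strand and Ltf chr9:111019271-111042767 on the plus strand, a stretch of 1.20 Mb. The others lie apart from it: Mmp8 at chr9:7558456-7568485, Prtn3 at chr10:79874476-79883174, Lcn2 at chr2:32384633-32388252, Slpi at chr2:164354070-164389095, Mmp9 at chr2:164940780-164955850, Chil3 at chr3:106147554-106167564 and Serpinb1a at chr13:32842092-32851185. C/EBP factors, among them C/EBP-epsilon, which drives specific granule genes, bind short DNA sites, and a loose form of these, TTNNGNAA on either strand, was searched in the 250 bases before the RefSeq start of each gene (RefSeq, GRCm38.p6). The promoters of these 3 genes are shown because their transcripts were found together, and that of Slpi because its ratio went the other way. Each reads 5′ to 3′ on the gene's own strand up to the base before the start, with matches in capitals:
Camp: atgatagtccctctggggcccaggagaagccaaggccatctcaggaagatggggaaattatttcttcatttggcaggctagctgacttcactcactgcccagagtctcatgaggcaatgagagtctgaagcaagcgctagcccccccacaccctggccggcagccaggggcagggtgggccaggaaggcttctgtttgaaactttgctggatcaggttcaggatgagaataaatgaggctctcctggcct
Ngp: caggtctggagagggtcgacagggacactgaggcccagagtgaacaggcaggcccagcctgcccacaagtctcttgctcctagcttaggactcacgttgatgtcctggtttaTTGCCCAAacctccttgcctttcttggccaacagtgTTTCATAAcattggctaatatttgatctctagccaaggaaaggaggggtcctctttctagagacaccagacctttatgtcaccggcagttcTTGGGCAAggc
Ltf: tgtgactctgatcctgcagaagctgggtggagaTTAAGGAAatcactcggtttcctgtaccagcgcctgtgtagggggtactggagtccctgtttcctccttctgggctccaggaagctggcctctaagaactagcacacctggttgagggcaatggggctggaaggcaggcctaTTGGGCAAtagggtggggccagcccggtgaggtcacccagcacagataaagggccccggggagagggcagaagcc
Slpi: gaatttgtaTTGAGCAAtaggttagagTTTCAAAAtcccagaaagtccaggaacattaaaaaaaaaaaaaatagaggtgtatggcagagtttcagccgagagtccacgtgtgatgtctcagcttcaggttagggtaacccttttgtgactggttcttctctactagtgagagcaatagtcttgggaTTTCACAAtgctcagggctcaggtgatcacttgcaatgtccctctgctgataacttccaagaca
The windows are chr9:109849457-109849706 for Camp, chr9:110419558-110419807 for Ngp, chr9:111019042-111019291 for Ltf and chr2:164356508-164356757 for Slpi. The gene spans above are from GENCODE and begin at other bases than the RefSeq starts. The windows of Camp, Ngp and Ltf therefore overlap those spans in part, and that of Slpi lies wholly inside its span. The Ngp window held 3 matches, whose first bases lie 138, 102 and 11 bases before the RefSeq start, the last of them inside the GENCODE span. The Ltf window held 2, at 217 and 75 bases, and the Slpi window 3, at 241, 223 and 64 bases. The Camp window held none. Such letters are common: 36.8% of 32851 mouse promoters of that length hold a match. Of the 8 granule genes with a RefSeq promoter in the table, 6 hold one (Chil3, Lcn2, Ltf, Mmp8, Ngp and Slpi) and Camp and Prtn3 do not. The core of sites for PU.1, a myeloid transcription factor, GAGGAA on either strand, was found in 23.3% of all promoters and in those of Lcn2, Ltf, Mmp8 and Prtn3.

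The specific granule transcripts that stay abundant in blood neutrophils were closer between the libraries. Lcn2 encodes lipocalin 2, which binds bacterial siderophores and so withholds iron. It had 43518 UMIs in aged and 12657 UMIs in young neutrophils, or 7940 CPM and 6245 CPM, a ratio of 1.27 (1.25 to 1.30). Its median was 14 UMIs per aged and 10 UMIs per young neutrophil, and 99.8% of aged and 98.1% of young neutrophils held it. Mmp8 encodes neutrophil collagenase. It was at 1587 CPM in aged and 1186 CPM in young neutrophils, a ratio of 1.34 (1.28 to 1.40), and at 500 UMIs per cell it was found in 47.6% (45.7% to 49.6%) of aged and 34.3% (31.6% to 37.2%) of young neutrophils. Unlike Camp, neither rested on a few cells: the 5 highest aged cells held 1.05% of the Lcn2 and 1.28% of the Mmp8 UMIs. Without cells that had Camp or Ltf, the log2 ratio was 0.34 for Lcn2, against 0.35 in all neutrophils, and 0.43 for Mmp8, against 0.42.

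Chil3 encodes a chitinase-like lectin of mouse neutrophils and monocytes, also known as Ym1, and its near-identical neighbour Chil4 can share its reads. It was at 566 CPM in aged and 488 CPM in young neutrophils, a ratio of 1.16 (1.08 to 1.25), while the share of cells with a UMI was 47.2% (45.3% to 49.2%) in aged and 47.8% (44.9% to 50.8%) in young neutrophils. The difference lay in cells with more UMIs, since at least 5 were held by 6.39% (5.49% to 7.40%) of aged and 2.65% (1.79% to 3.76%) of young neutrophils. Among NK cells it was found in 13 of 58 aged and 21 of 70 young cells.

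Mmp9 and Prtn3, the gelatinase and azurophil granule transcripts of the set, had the ratios nearest 1. The Prtn3 interval below covers the ratios of Chil3, Lcn2 and Mmp8, so Prtn3 cannot be ranked against these. Mmp9 encodes gelatinase B, the enzyme that gives gelatinase granules their name. It was at 1158 CPM in aged and 1036 CPM in young neutrophils, a ratio of 1.12 (1.06 to 1.17), with a median of 2 UMIs per cell in both libraries. Prtn3 encodes proteinase 3, a serine protease of azurophil granules. It had 125 UMIs in aged and 40 UMIs in young neutrophils, or 22.8 CPM and 19.7 CPM, a ratio of 1.16 whose interval, 0.804 to 1.69, includes 1. No aged neutrophil had more than 4 Prtn3 UMIs and no young one more than 1.

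The 2 protease inhibitors went opposite ways. Serpinb1a encodes a serpin of the cytosol that inhibits elastase, proteinase 3 and cathepsin G. It had 872 UMIs in aged and 83 UMIs in young neutrophils, or 159 CPM and 41.0 CPM, a ratio of 3.88 (3.10 to 4.93). It was found in 531 aged neutrophils (20.2%, 18.7% to 21.8%) and 66 young ones (5.83%, 4.53% to 7.35%), and at 500 UMIs per cell in 6.70% (5.77% to 7.72%) and 1.68% (1.01% to 2.61%). In NK cells it was found in 6.90% (1.91% to 16.7%) of 58 aged and 1.43% (0.0362% to 7.70%) of 70 young cells at full depth. The young NK interval includes the 5.83% of young neutrophils, while the aged one lies below the 20.2% of aged neutrophils. In CPM, young neutrophils had 1.20 times the level of young monocytes (0.895 to 1.59), an interval that includes equal levels. Aged neutrophils had 2.14 times the level of aged monocytes, with an interval wholly above equal levels. The part of free RNA in these values was not tested. The Serpinb1a UMIs of neutrophils were spread, with 9 in the highest aged and 4 in the highest young cell, and 4.59% of aged UMIs in the 5 highest cells. Without those 5 cells in each library the log2 ratio was 2.17, and in neutrophils with no UMI of Camp or Ltf it was 1.84, against 1.96 in all.

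Slpi encodes the secretory leukocyte protease inhibitor, which blocks elastase and cathepsin G. It was at 3238 CPM in aged and 4961 CPM in young neutrophils, a ratio of 0.653 (0.637 to 0.669). Its median was 6 UMIs per aged and 8 UMIs per young neutrophil, although aged cells were deeper. At 500 UMIs per cell it was found in 73.4% (71.7% to 75.1%) of aged and 82.4% (80.1% to 84.6%) of young neutrophils. It was lower in aged neutrophils under all 13 alternatives, with ratios between 0.623 and 0.810. It did not reach 1.5-fold with TMM scaling (log2 ratio −0.30), with ratios centred on their median (−0.38), without S100a8, S100a9 and Retnlg in the total (−0.41), in cells from 1451 UMIs upward (−0.55) or with the Eryth-Neutro cells added (−0.58), against −0.62 as reported.

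Summed, the 10 transcripts took 1.58% of UMIs in aged and 1.46% in young neutrophils. A neutrophil held a median of 5 of the 10 in the aged and 4 in the young library, and 3 in both once thinned to 500 UMIs. At least 1 of Camp, Ltf and Ngp was found in 49.0% of aged and 32.9% of young neutrophils, and in 23.5% and 16.9% of them at 500 UMIs. Lcn2 and Slpi, the most abundant of the set, lay on opposite sides, Lcn2 higher and Slpi lower in the aged library.

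Other genes of the same granules were read from lists, which were also chosen with earlier results of these data known. Of 13 specific granule genes from 50 UMIs upward, 5 passed 1.5-fold on the higher side in aged neutrophils and 1 on the lower, beside 3.81% and 20.3% of all genes, with a median log2 ratio of 0.42, and 6 of the 13 are among the 10 above. Beside Camp, Ltf and Ngp the higher ones were Itgb2l, at 1.83 (1.32 to 2.59), and Orm1, which encodes the acute-phase protein orosomucoid, at 2.095 (1.02 to 4.84). The lower one was Lyz2, lysozyme, at 1831 CPM in aged and 2773 CPM in young neutrophils, a ratio of 0.660 (0.639 to 0.682). Hp, haptoglobin, was at 1.17 (1.14 to 1.20) and Pglyrp1, a peptidoglycan-binding protein, at 1.14 (1.10 to 1.17).

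Of 6 azurophil granule genes with at least 50 UMIs, 0 were 1.5-fold higher and 2 were lower, with a median of −0.02. So few genes cannot be told from the 3.81% higher and 20.3% lower of all genes. The lower ones were Prss57, a serine protease, at 0.421 (0.248 to 0.718), and Gusb, beta-glucuronidase, at 0.475 (0.282 to 0.809). Mpo, myeloperoxidase, and Ctsg, cathepsin G, had 0 UMIs in both libraries, and Elane, neutrophil elastase, 2 UMIs in aged and 0 UMIs in young neutrophils. Cell cycle genes had 53 UMIs in aged and 24 UMIs in young neutrophils over 8 genes, of which Mki67 had 1 UMI in the aged and 0 UMIs in the young library.

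The same shares of all genes stand beside the next lists. Of 8 gelatinase granule genes with at least 50 UMIs, 0 were 1.5-fold apart in either direction, with a median of −0.02. Of 6 secretory vesicle genes, 2 were higher and 0 lower: Cd14, the lipopolysaccharide co-receptor, at 1.81 (1.64 to 1.98), and Fpr1, a receptor for bacterial formyl peptides, at 1.68 (1.49 to 1.89). Of 9 protease inhibitor genes, 2 were higher and 2 lower, the lower share being near the 20.3% of all genes. Beside Serpinb1a and Slpi these were Serpinb6a, another cytosolic serpin, at 1.55 with an interval of 0.789 to 3.31, and Spint2, which encodes a membrane-bound inhibitor, at 0.438 (0.254 to 0.760). Of 11 genes of granule packing and release, 0 were higher and 1 was lower, the syntaxin gene Stx4a at 0.640 (0.470 to 0.878), with a median of −0.19. Srgn, the serglycin core that holds granule proteins together, was at 1.21 (1.17 to 1.24). The next most abundant were below 1: Vamp8 at 0.834 (0.781 to 0.891), Hcls1 at 0.876 (0.798 to 0.962) and Snap23 at 0.672 (0.605 to 0.747). Of 8 transcription factor genes of granulopoiesis, 0 were 1.5-fold apart, with a median log2 ratio of −0.10. The 4 most abundant were Cebpb at 0.952 (0.917 to 0.988), Spi1 at 0.840 (0.802 to 0.879), Lmo4 at 0.741 (0.667 to 0.824) and Cbfb at 1.17 (0.829 to 1.67). Cebpe, the C/EBP-epsilon gene, was at 25.4 CPM in aged and 19.2 CPM in young neutrophils, a ratio of 1.32 (0.918 to 1.93).

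**Figure D4:**
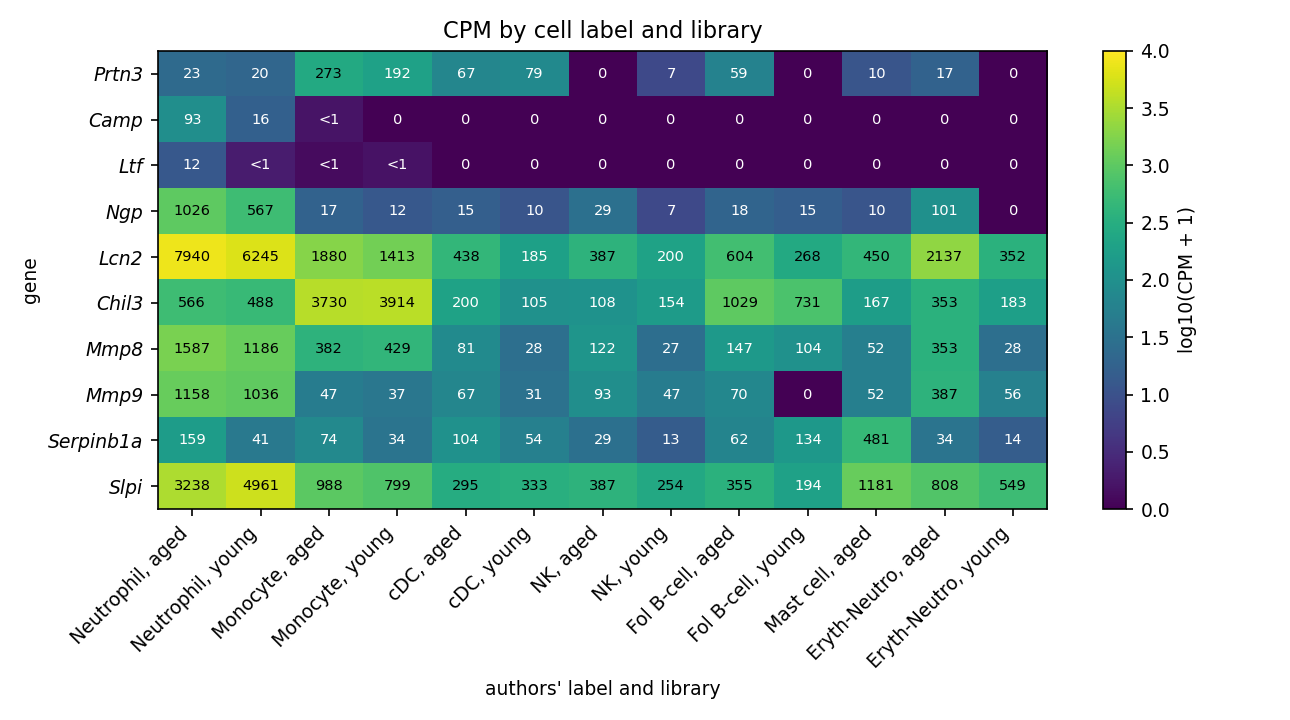
CPM of each granule transcript by the authors' cell label, with the aged library left of the young one, coloured by log10(CPM + 1) and printed in each field. The young library had no cells labelled Mast cell. Camp, Ltf, Ngp, Lcn2, Mmp8, Mmp9 and Slpi are highest in neutrophils, and Chil3 and Prtn3 in monocytes. Serpinb1a is highest in the cells labelled Mast cell in the aged library. In the young library it is highest in those labelled Fol B-cell, on 9 UMIs.

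Across the other labels the 10 transcripts fell into kinds. Camp and Ltf had 0 UMIs in the cells labelled cDC, NK, Fol B-cell, Mast cell and Eryth-Neutro in both libraries, and no more than 4 UMIs in the monocytes of either. Ngp was 60.3 times higher (49.9 to 73.6) in neutrophils than in monocytes of the aged library and 49.0 times (36.0 to 68.3) in the young one. Mmp9 was 24.4 times higher (21.7 to 27.5) in aged and 28.0 times (23.5 to 33.6) in young neutrophils. Lcn2 was 4.22 times higher (4.14 to 4.31) in aged and 4.42 times (4.28 to 4.57) in young neutrophils, and Mmp8 4.16 times (3.97 to 4.35) and 2.76 times (2.59 to 2.95).

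Chil3 and Prtn3 were higher in monocytes than in neutrophils. Chil3 was at 566 CPM in aged neutrophils against 3730 CPM in aged monocytes, and at 488 CPM in young neutrophils against 3914 CPM in young monocytes. Prtn3 was at 22.8 CPM in aged neutrophils against 273 CPM in aged monocytes, and at 19.7 CPM in young neutrophils against 192 CPM in young monocytes. Neutrophils thus had 15.2% of the monocyte level of Chil3 in the aged and 12.5% in the young library, and 8.37% and 10.3% of that of Prtn3. The 7 monocyte markers stood in neutrophils at a median of 2.86% of their monocyte level in the aged and 4.12% in the young library, within 1.95% to 37.2% and 2.90% to 37.7%. Both transcripts lie inside that range, but only Ly6c2 and Csf1r of the markers lie above them. The other markers reached at most 3.22% in the aged and 4.48% in the young library, below both transcripts. The part of free or monocyte RNA in the neutrophil values of Chil3 and Prtn3 was not tested.

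The level of Lcn2, Mmp8, Mmp9 and Ngp in NK cells was set beside that of the neutrophil markers there. NK cells had 4.88% of the neutrophil level of Lcn2 in the aged and 3.21% in the young library, 7.68% and 2.25% of that of Mmp8, 8.05% and 4.51% of that of Mmp9, and 2.80% and 1.18% of that of Ngp. The 7 neutrophil markers had 6.38% to 11.2% in the aged and 1.62% to 5.97% in the young library. Mmp8 and Mmp9 lay inside these ranges in both libraries, Lcn2 inside in the young and below in the aged library, and Ngp below in both, on 4 UMIs in aged and 1 UMI in young NK cells. Above them in both libraries lay Chil3, at 19.0% and 31.5%, and Serpinb1a, at 18.0% and 32.6% on 4 UMIs and 2 UMIs. Slpi lay above in the aged library, at 12.0%, and inside in the young one, at 5.12%. Prtn3, Camp and Ltf had no more than 1 UMI in the NK cells of either library. In monocytes Lcn2 had 83.1 UMIs per 1000 UMIs of S100a8 in aged and 87.7 in young monocytes, against 38.3 in aged and 36.5 in young neutrophils. The part of free neutrophil RNA in these monocyte values was not tested. For Mmp9 the monocytes had 2.098 in the aged and 2.29 in the young library, below the 5.58 and 6.05 of the neutrophils.

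Serpinb1a was highest in the 42 aged cells labelled Mast cell, at 481 CPM (352 to 642), and these also had Slpi at 1181 CPM (974 to 1420). All 5 mast cell or basophil markers in the table were present in them, and no young cell carried that label. The cells labelled Fol B-cell, 41 aged and 14 young, had Chil3 at 1029 CPM in the aged and 731 CPM in the young library. These were 281 UMIs in 28 aged cells and 49 UMIs in 3 young cells. The 7 monocyte markers took 1656 CPM in the aged and 1074 CPM in the young cells of that label. The part of free or monocyte RNA in these Chil3 values was not tested.

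Between the libraries, the monocytes did not repeat the neutrophil pattern for every transcript. Camp and Ltf had too few UMIs there. Of the other 8, 1 passed 1.5-fold upward in aged monocytes, Serpinb1a at 2.17 (1.78 to 2.67), against 5.90% of 7780 genes, and 0 were lower by that fold, against 8.68%. Prtn3 was at 1.42 (1.30 to 1.55) and Lcn2 at 1.33 (1.29 to 1.37). Ngp was at 1.47 (1.02 to 2.15) and Mmp9 at 1.28 (1.04 to 1.58). Monocytes had 1.66% of the neutrophil level of Ngp in the aged and 2.04% in the young library, and 4.10% and 3.57% of that of Mmp9. The 7 neutrophil markers had 3.60% to 30.1% there in the aged and 3.52% to 19.9% in the young library. The part of free neutrophil RNA in the monocyte ratios of Ngp and Mmp9 was not tested. Slpi was at 988 CPM in aged and 799 CPM in young monocytes, a ratio of 1.24 (1.18 to 1.29), where it was lower in aged neutrophils. Mmp8 was at 0.890 (0.835 to 0.949) and Chil3 at 0.953 (0.933 to 0.973), where both were higher in aged neutrophils. Whether these ratios differ between the cell types beyond the spread between mice could not be tested.

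**Figure D5:**
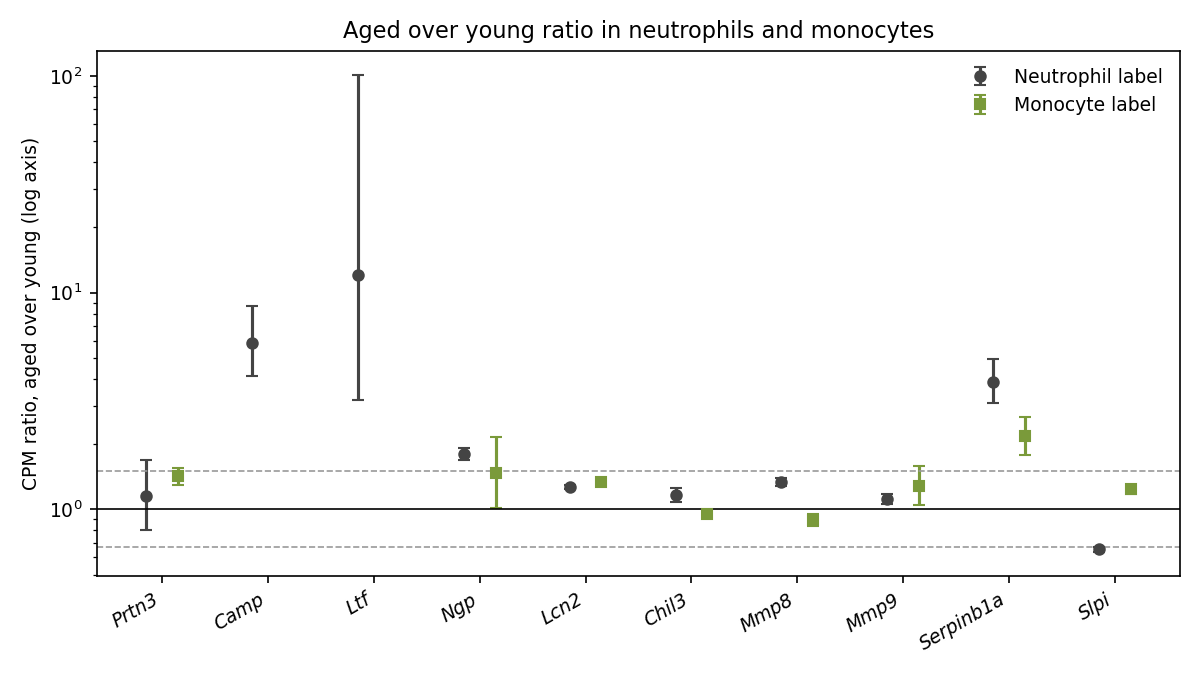
Ratio of aged over young CPM on a log axis for each granule transcript in cells labelled Neutrophil (dark circles) and Monocyte (green squares), with exact 95% intervals for counting error. The solid line marks equal levels and the dashed lines 1.5-fold, and transcripts under 50 UMIs in a cell type are not drawn. Slpi lies below the line in neutrophils and above it in monocytes.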

How the data were processed

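The authors deposited 1 table of raw UMI counts per gene and cell, with a library and a cell label for each cell. Cell Ranger 2.1.1 and mm10 are given in the submitters' processing notes; how cells and genes were filtered is not given in the sources used here. Doublet scores came from scrublet in scanpy 1.11.5. Its automatic threshold called 0 aged and 4 young cells, so the highest scores were removed at 8 per 1000 cells for each 1000 cells, 124 aged and 27 young. Counts were summed per label and library and scaled to CPM, with exact Poisson, conditional binomial and Clopper-Pearson intervals (scipy 1.17.1) at 95%. The share that 0 cells allow was instead taken as 3 over the number of cells, which is lower than the Clopper-Pearson limit. For Camp that limit was 0.325% for at least 5 UMIs in young neutrophils, and 6.16% in aged and 5.13% in young NK cells. Ratios need 50 UMIs over both libraries; the calculation was checked on simulated data. TMM factors came from edgeR 4.0.16.

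The 10 genes and all lists were chosen with earlier results of these data known. Named were the 10 genes, list genes 1.5-fold apart, some of the 4 most abundant of a list, and the 10 genes most like Camp. Of the list genes, Cebpe, Mpo, Ctsg, Elane and Mki67 were named outside that rule. That ranking leaves out ribosomal, mitochondrial, globin, Y-linked, antigen receptor and Xist transcripts. Several forms of the motifs were looked at before those shown. Positions are from GENCODE. Alternatives were other scalings, filters, thinning, doublets kept and highest cells left out.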

Additional observations from a re-analysis of the deposited data

Results flagged for a closer look

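For 3 of the 10 transcripts the aged library stood on opposite sides of the young one in neutrophils and in monocytes. Slpi had a ratio of aged over young of 0.653 in neutrophils and 1.24 in monocytes. Mmp8 had a ratio of 1.34 in neutrophils and 0.890 in monocytes. Chil3 had a ratio of 1.16 in neutrophils and 0.953 in monocytes. The difference between the cell types was not tested, since each age has 1 library. With TMM scaling the monocyte ratios were 1.24 for Slpi, 0.895 for Mmp8 and 0.959 for Chil3, and all 3 kept their directions in both cell types.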

How the results depend on the processing

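Each of the 10 transcripts kept its direction in neutrophils under every alternative run, with ratios of 2.74 to 7.30 for Camp, 3.45 to 14.9 for Ltf, 3.32 to 4.82 for Serpinb1a, 1.49 to 2.24 for Ngp and 0.623 to 0.810 for Slpi. Of the 10, 6 were 1.5-fold higher and 0 lower with TMM scaling or ratios centred on their median, and 0 were lower with S100a8, S100a9 and Retnlg left out of the total, with only cells from 1451 UMIs upward, or with Eryth-Neutro cells added. Counts over all genes, as higher and lower, were 493 and 331 with TMM scaling, 383 and 403 with centred ratios, 342 and 475 without S100a8, S100a9 and Retnlg, 90 and 494 at 500 UMIs per cell, 382 and 1615 from 20 UMIs, 50 and 356 from 200 UMIs, and 684 and 3011 from 1 UMI in each library, against 181 and 962 as reported. At 1000 UMIs per cell 116 were higher. The Ngp share of Camp-positive minus Camp-negative aged cells was 31.0 percentage points as reported, 45.4 at 500 UMIs and 65.3 when detection needs 2 UMIs. Without the 5 cells highest in Camp, 7 genes in place of 11 were 2-fold higher in Camp-positive cells, and 2 when genes were chosen by 400 UMIs over all aged neutrophils, settings chosen after seeing the data, like those without the single highest cell or without Camp- or Ltf-positive cells. The cause of these shifts was not tested. Without its 5 highest cells Ltf had no young UMI and so no ratio. No paired analysis was possible because each age has 1 library, and for the same reason no replicate could be left out. With 2 young UMIs of Ltf and 40 of Prtn3, counting error leaves both ratios wide.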
